A study of Mus musculus with 8 samples.

Results

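The 10 genes described here are tetraspanins of T cells: Tspan9, Tspan13, Tspan31, Tspan32, Cd9, Cd37, Cd53, Cd63, Cd81 and Cd82. They are 10 of the 22180 genes that the array names with a probe set of a single symbol. They were chosen by family, in a comparison in which Tspan9 stood among the largest falls, so the fall of Tspan9 is described without a test. All 10 passed the filter on low signal, a mean log2 of at least 5.56 over all arrays. The study asked how protein geranylgeranylation, a lipid attachment that depends on the mevalonate pathway, bears on the exit of thymocytes from the thymus. Its 8 Mouse Gene 2.0 ST arrays hold RNA of sorted CD4SP thymocytes, T cells of the thymus that kept CD4 and lost CD8 after selection. There were 4 arrays of wild-type (WT) and 4 of Pggt1b_KO cells, both on a C57BL/6 background. The label Pggt1b_KO, written KO below, means a knockout of the gene for the catalytic subunit of the enzyme that attaches this lipid to small GTPases (GGTase-I). The sources used here give neither the age and sex of the mice nor the deleted part of the gene or any Cre driver. Nothing there says that the arrays came from separate mice, so p-values measure the spread between these samples only. Replicate numbers follow the order of deposition within each genotype and pair no arrays.

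Tetraspanins are small membrane proteins that cross the membrane several times and gather other proteins into patches of the cell surface. Their partners include integrins, immunoglobulin superfamily proteins, the sheddase ADAM10 and coreceptors such as CD4 and CD8. They also carry palmitate, a lipid attached by other enzymes than the one encoded by Pggt1b. In lymphocytes they are known for their parts in adhesion, costimulation and the sorting of vesicles.

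Tspan31 and Tspan9 had the lowest values in KO relative to WT among the 10 genes, Cd9 was the member that rose, and Cd82 fell slightly. The other 6 did not pass the test. An adjusted p under 0.05 in a limma fit over all 11585 tested genes (Benjamini-Hochberg) counts as changed, and each difference is the KO mean less the WT mean of the deposited log2 values, with its standard error (SE). All KO arrays stood on one side of all WT arrays for 5 of the 10, as they did for 20.3% of all tested genes. By the adjusted p 1 of the 10 was higher in KO, against 4.45% of all tested genes. The fit put 3 of the 10 lower, Tspan9 included, against 8.53% of all tested genes. Called in either direction were 13.0% of all tested genes. The median difference of the 10 was -0.039, beside -0.030 for all tested genes. Since the members were chosen with these differences known, nothing is read from the counts.

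Where transcription of 3 of these genes starts is shown first, since Tspan9 and Cd82 were lower and Cd9 higher in KO. Each sequence is the 250 bases before the outermost start site that RefSeq lists for the gene (assembly GRCm38.p6, minus strand, written 5′ to 3′). They lie at chr6:128143579-128143828 for Tspan9, chr6:125494761-125495010 for Cd9 and chr2:93462951-93463200 for Cd82. Capitals mark the GC box GGGCGG on either strand, a motif that factors of the SP and KLF families can bind.
Tspan9: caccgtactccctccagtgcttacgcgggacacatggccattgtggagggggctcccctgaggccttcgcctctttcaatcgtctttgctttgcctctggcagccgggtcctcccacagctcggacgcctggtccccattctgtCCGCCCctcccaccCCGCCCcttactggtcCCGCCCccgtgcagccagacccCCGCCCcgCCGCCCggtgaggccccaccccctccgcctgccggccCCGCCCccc
Cd9: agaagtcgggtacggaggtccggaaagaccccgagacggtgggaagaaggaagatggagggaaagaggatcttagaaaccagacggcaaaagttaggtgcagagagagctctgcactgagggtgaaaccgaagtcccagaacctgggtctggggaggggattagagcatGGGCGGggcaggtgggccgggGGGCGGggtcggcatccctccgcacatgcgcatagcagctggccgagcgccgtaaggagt
Cd82: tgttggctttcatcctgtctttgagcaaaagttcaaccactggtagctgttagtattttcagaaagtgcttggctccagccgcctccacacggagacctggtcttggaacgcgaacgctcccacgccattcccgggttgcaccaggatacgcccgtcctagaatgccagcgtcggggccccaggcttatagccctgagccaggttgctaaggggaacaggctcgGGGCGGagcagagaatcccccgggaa

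The printed Tspan9 window held 6 GC boxes, that of Cd9 held 2 and that of Cd82 held 1. Windows of the other Tspan9 starts held 0, 0 and 1, and those of the other Cd82 starts 1, 0 and 0. The window of Cd81, which was not called, held 3. A GC box stood in 8 of the 16 windows listed for the 10 genes, and in 32.7% of all 32851 RefSeq promoter windows of the same length. The box CACCC, on either strand and counted also where it shares a base with a GC box, stood in 10 of the 16 windows, against 52.0% of all. The CCAAT box stood in 7 of the 16, against 33.8% of all, and TATAAA in 0 of the 16, against 12.4% of all. The single Tspan31 window held 0 GC boxes and 4 CCAAT boxes. It lies within the span of the gene in the RefSeq table, as 10 of the 16 windows do in whole or in part, and such windows are counted here but not printed, since they may hold transcribed sequence. RefSeq lists 4 start sites each for Tspan9 and Cd82, and the probe sets are summed over the gene, so the arrays do not show which start was used.

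Tspan9, a tetraspanin known mainly from platelets, had WT values of 8.33, 7.96, 8.17 and 8.11 log2. In the KO arrays it stood at 7.25, 6.88, 7.14 and 7.62. Every KO array lay below every WT array, and KO replicate 2 was the lowest of all. The mean went from 8.14 ± 0.15 to 7.22 ± 0.31 (SD, n = 4 per genotype), a difference of -0.92 log2, or 1.89-fold lower. It ranked 13 among 11585 differences ordered from the lowest. Just before it stood Tmem35a at -0.92 and just after it Tiam1 at -0.91. Because this fall chose the gene set, it is given as a description.

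Tspan31 was the other member with a large fall. It encodes a widely expressed tetraspanin whose gene lies end to end with Cdk4, the cyclin D dependent kinase. Its WT arrays read 10.12, 10.39, 10.27 and 10.47, and its KO arrays 9.58, 9.51, 9.57 and 9.61. The genotypes were apart by more than the range within either of them, and the KO arrays lay close together. The level fell by 0.75 log2 (SE 0.074; 95% interval -0.91 to -0.58), which is 1.68-fold (limma, Benjamini-Hochberg adjusted p = 0.000435). Leaving out each array in turn gave an adjusted p from 0.000349 to 0.00258, and leaving out both KO replicates 1 and 2 gave 0.0169.

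Cdk4, the neighbour of Tspan31, was looked at after its value was seen. It read 11.22, 11.26, 11.13 and 11.22 in WT and 10.91, 10.94, 10.95 and 10.97 in KO, a difference of -0.27 ± 0.047 SE (limma, adjusted p = 0.00728). Cdk4 missed the threshold without KO replicates 1 and 2 together (0.0907), where Tspan31 kept its call. In the RefSeq table the genes overlap by 2 bases, and Tspan31 overlaps the noncoding gene A730063M14Rik by 492 bases. That gene was below the filter, at 5.16 in WT and 4.82 in KO. Whether any probe lies in an overlap was not tested.

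Cd82, also called KAI1, is a tetraspanin of T cells linked to costimulation and to limits on cell movement. It read 8.33, 8.28, 8.24 and 8.21 in WT and 8.16, 8.01, 8.05 and 8.12 in KO. The groups did not overlap, but the gap between the lowest WT and the highest KO array was small. It fell by 0.18 log2 (SE 0.051; 95% interval -0.29 to -0.064), or 1.13-fold (limma, adjusted p = 0.0480). Removal of any array ended this call (adjusted p 0.0569 to 0.115).

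**Figure D1:**
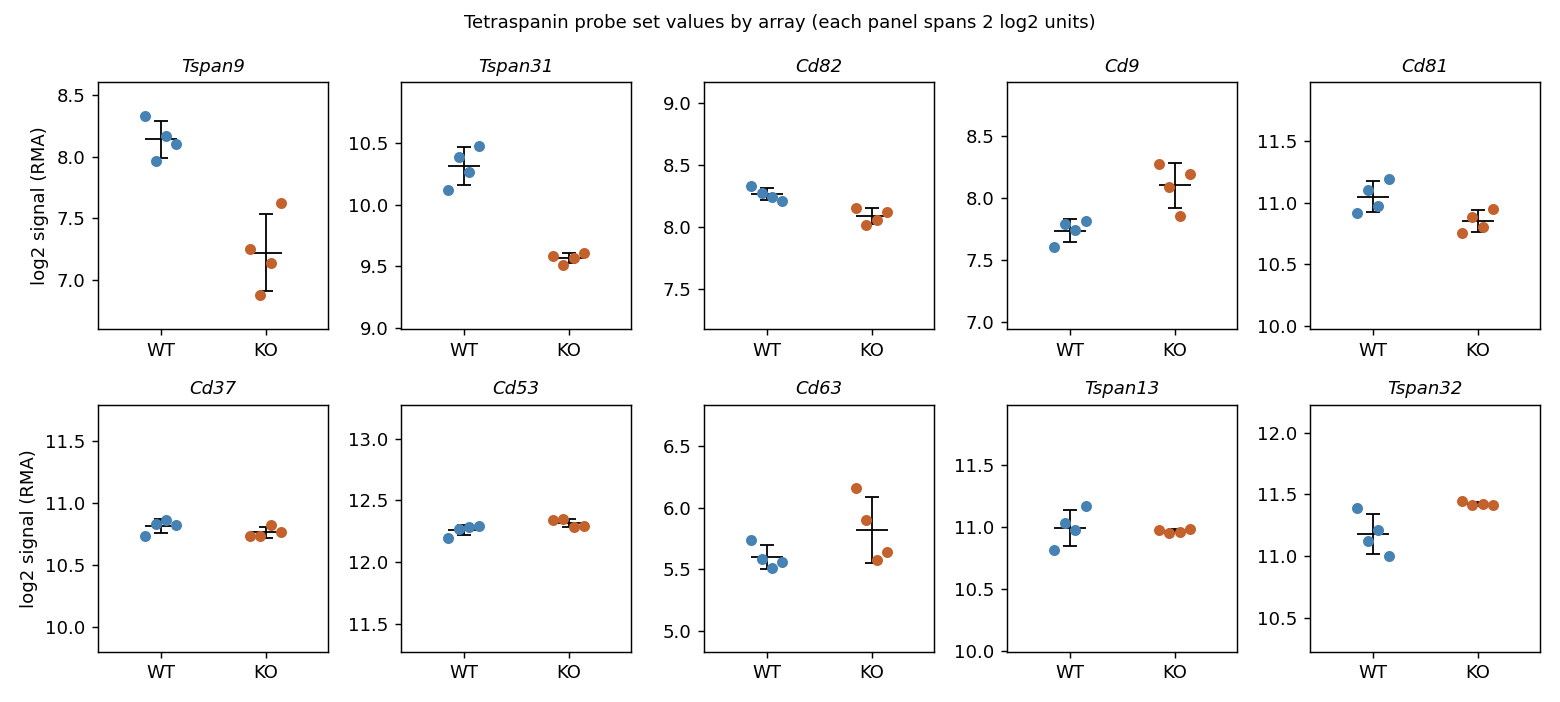
Log2 signal of the 10 tetraspanins in each array, with WT in blue and KO in orange; the dash and bar are the mean ± SD of 4 arrays and each panel spans the same log2 range. All KO points of Tspan9, Tspan31 and Cd82 lie below all WT points, while those of Cd9 and Tspan32 lie above.

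Cd9, which organises integrins and costimulates T cells, was the member that rose. Its WT arrays read 7.60, 7.79, 7.74 and 7.81 and its KO arrays 8.27, 8.09, 7.86 and 8.19. KO replicate 3 stood nearest to WT, and the groups did not overlap. The rise was 0.37 ± 0.090 SE (95% interval 0.17 to 0.57), or 1.29-fold (limma, adjusted p = 0.0278). Removal of any array other than KO replicate 3 or WT replicate 4 ended the call, with an adjusted p of at most 0.0727. Cd9 has a second, dimmer probe set, below the filter, at 4.98 ± 0.068 in WT and 5.00 ± 0.14 in KO (SD, n = 4 each). That probe set did not show the rise: it differed by 0.021 log2, and with the mean of both the difference was 0.19 (limma, adjusted p = 0.0871).

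Tspan32, a tetraspanin of blood cells known as a negative regulator of T cell proliferation, stood higher in KO without passing the test. It read 11.39, 11.13, 11.21 and 11.00 in WT, and 11.45, 11.41, 11.42 and 11.42 in KO. All KO arrays lay above all WT arrays, and WT replicate 1 lay next to them. The difference was 0.24 ± 0.076 SE (95% interval 0.075 to 0.41; limma, adjusted p = 0.0636). It passed the threshold without WT replicate 1 (0.0136), with array weights (0.0407) and with an intensity trend (0.0290).

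Cd81, a costimulator in T cells, lies next to Tspan32 apart from a noncoding gene. It read 10.92, 11.10, 10.97 and 11.19 in WT and 10.75, 10.89, 10.80 and 10.95 in KO. The 2 groups overlapped, since KO replicate 4 stood above WT replicate 1. The difference was -0.20 ± 0.073 SE (95% interval -0.36 to -0.035; limma, adjusted p = 0.105). The noncoding gene between them, R74862, overlaps Cd81 in the RefSeq table and differed by -0.030 (limma, adjusted p = 0.797).

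Cd37 and Cd53, tetraspanins of leukocytes known for limiting T cell proliferation and for holding partner receptors at the surface, differed little between the genotypes. Cd37 ranged over 10.73 to 10.86 in WT and 10.73 to 10.82 in KO, a difference of -0.050 (95% interval -0.16 to 0.061). Cd53 ranged over 12.20 to 12.29 in WT and 12.28 to 12.35 in KO, a difference of 0.055 (95% interval -0.047 to 0.16). Both groups overlapped for each gene, and the intervals leave room for changes of up to about these bounds (limma, adjusted p = 0.554 for Cd37 and 0.467 for Cd53).

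Tspan13, whose role in T cells is less described, differed by -0.027 (95% interval -0.18 to 0.13; limma, adjusted p = 0.838). Its WT arrays spread from 10.81 to 11.17, while its KO arrays all lay between 10.95 and 10.98. The SD was 0.15 in WT and 0.012 in KO, so the KO values sat inside the WT range.

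Cd63, a tetraspanin of late endosomes and vesicles, was near the filter, where background compresses differences. It read 5.73, 5.59, 5.51 and 5.56 in WT and 6.16, 5.90, 5.57 and 5.64 in KO. KO replicates 1 and 2 were high and the other KO arrays lay within the WT range. The difference was 0.22 ± 0.12 SE (limma, adjusted p = 0.250), and 0.0096 without these 2 arrays. The mean log2 of the heat-shock genes Hspa1a and Hspa1b was 10.34 and 9.79 in KO replicates 1 and 2, the highest of all arrays. WT replicate 3, which had the lowest Cd63 value, came next at 8.58, and KO replicate 3 was lowest at 4.57. A fit with that mean as a covariate gave a Cd63 difference of 0.14 (limma, adjusted p = 0.489). Beyond that fit, the part of these genes in the Cd63 values was not tested.

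**Figure D2:**
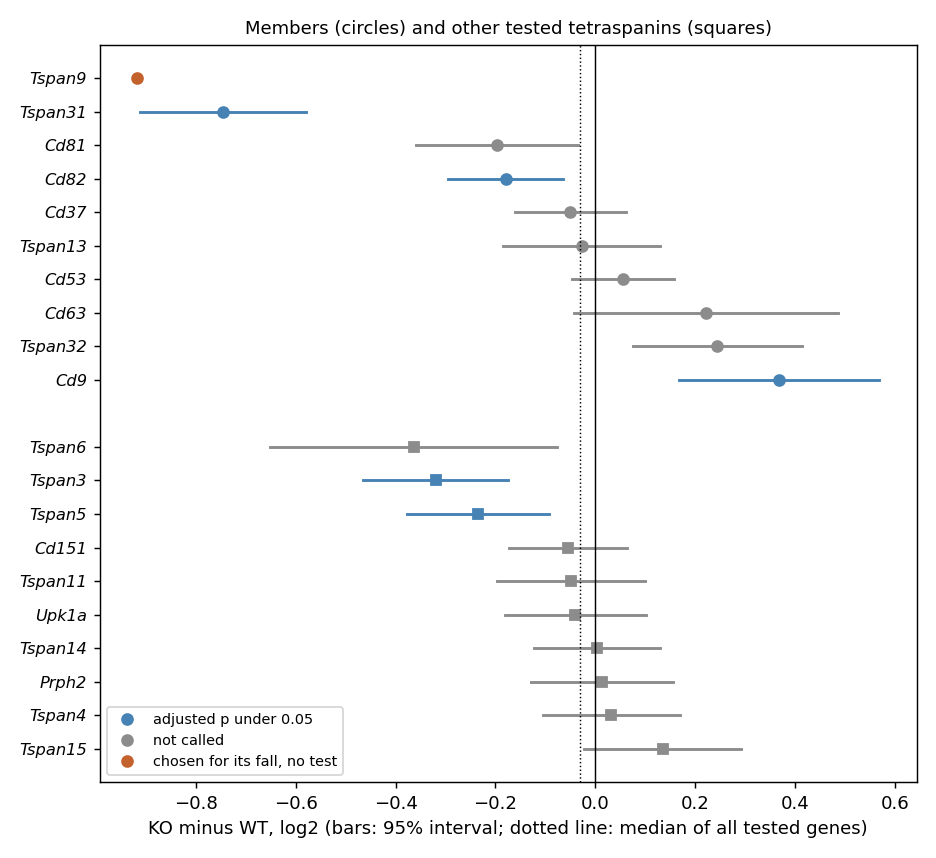
Difference between KO and WT in log2 for the 10 members (circles) and the 10 other tested tetraspanins (squares), with 95% intervals of the limma fit except for Tspan9, which was chosen for its fall; the dotted line is the median of all tested genes. Of the genes drawn in blue, which passed the test, Tspan31, Cd82, Tspan3 and Tspan5 lie below 0 and Cd9 lies above.

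The rest of the tetraspanin family was listed as 22 genes, of which 20 had a probe set and 10 passed the filter. Of these 10, 0 rose and 2 fell, against 4.45% and 8.53% of all tested genes, and 3 had an unadjusted p under 0.05. Their median difference was -0.044. Tspan3, a widely expressed tetraspanin, read 8.40, 8.41, 8.42 and 8.55 in WT and 8.29, 8.06, 8.05 and 8.10 in KO. No KO array reached the WT range, though KO replicate 1 came near. It fell by 0.32 log2 (SE 0.065), or 1.25-fold (limma, adjusted p = 0.0136, and at most 0.0399 with any single array left out).

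Tspan5 belongs to the TspanC8 group, which carries ADAM10 to the cell surface. It read 8.05, 8.08, 7.89 and 8.15 in WT and 7.87, 7.83, 7.73 and 7.81 in KO. The genotypes were barely apart, WT replicate 3 lying next to KO replicate 1. It fell by 0.23 log2 (SE 0.063; limma, adjusted p = 0.0389), and of the 8 arrays, removal of any but WT replicate 3 ended the call (adjusted p at most 0.101). Tspan14, another TspanC8 member, differed by 0.0034 (95% interval -0.12 to 0.13), and Tspan15 by 0.13 (-0.022 to 0.29). ADAM10 itself, as Adam10, differed by -0.074 (limma, adjusted p = 0.516).

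Tspan6 read 7.92, 8.47, 8.38 and 8.50 in WT and 8.13, 7.92, 8.01 and 7.76 in KO. WT replicate 1 lay among the KO arrays, and the difference of -0.36 ± 0.13 SE did not pass the test (limma, adjusted p = 0.0943), though it did without WT replicate 1 (0.0102). Cd151, Tspan11, Upk1a, Prph2 and Tspan4 differed by -0.054, -0.048, -0.040, 0.013 and 0.032, with adjusted p from 0.546 to 0.915. The signs of Prph2, Tspan4, Tspan14 and Upk1a turned under other settings. The genes below the filter were Tspan1, Tspan2, Tspan8, Tspan10, Tspan12, Tspan17, Tspan18, Tspan33, Upk1b and Rom1, and Tspan7 and Tspan19 had no probe set of a single symbol.

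Of 25 genes whose proteins associate with tetraspanins, 18 were tested, and 2 rose and 5 fell, against 4.45% and 8.53% of all tested genes. Their median difference was -0.12, beside -0.030 for all tested genes, and 15 of the 18 differences were below 0, as were 59.1% of those of all tested genes. The integrin subunits Itga4 and Itga6, which pair with beta subunits to bind matrix and endothelium, rose by 0.84 ± 0.094 SE and 0.78 ± 0.063 SE (limma, adjusted p = 0.000877 and 0.000122). The hyaluronan receptor Cd44 fell by 0.92 ± 0.14 SE, and the integrin beta subunit Itgb1 by 0.38 ± 0.065 SE (limma, adjusted p = 0.00342 and 0.00642). Integrins moved in both directions, with Itgal lower by 1.20-fold and Itgb2 at -0.17 (limma, adjusted p = 0.0182 and 0.0579). Itgal was no longer called when KO replicate 1 (0.0541) or WT replicate 2 (0.0506) was removed.

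Ptgfrn encodes a direct immunoglobulin superfamily partner of CD9 and CD81. It read 8.28, 8.42, 8.50 and 8.30 in WT and 8.17, 7.76, 8.05 and 7.84 in KO. All KO arrays were lower, while Cd9 was higher in the same arrays. It fell by 0.42 log2 (SE 0.093), or 1.34-fold (limma, adjusted p = 0.0189), and the call ended without WT replicate 2 (0.0503) or WT replicate 3 (0.0515). The coreceptor gene Cd8a was lower by 0.74 ± 0.19 SE (limma, adjusted p = 0.0354), a call lost on removal of WT replicate 2, WT replicate 3, KO replicate 2 or KO replicate 4 (at most 0.0891). Without KO replicates 1 and 2 the count of falls among the partners was 0. It was 3 without WT replicate 2 or WT replicate 3. Calls over all tested genes, in either direction, also fell, from 1503 to 254 without those KO replicates. They numbered 887 without WT replicate 2 and 930 without WT replicate 3.

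A list of 15 genes of multivesicular bodies and exosomes, compartments that carry CD9, CD63 and CD81, had 14 tested members and 0 calls in the limma fit, against 13.0% of all tested genes called in either direction. At an unadjusted p under 0.05 there were 2, Flot2 at 0.15 and the ESCRT subunit Chmp4b at -0.16 (limma, adjusted p = 0.126 and 0.0836). The median of the list was -0.012, and its differences ran from -0.16 to 0.15.

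**Figure D3:**
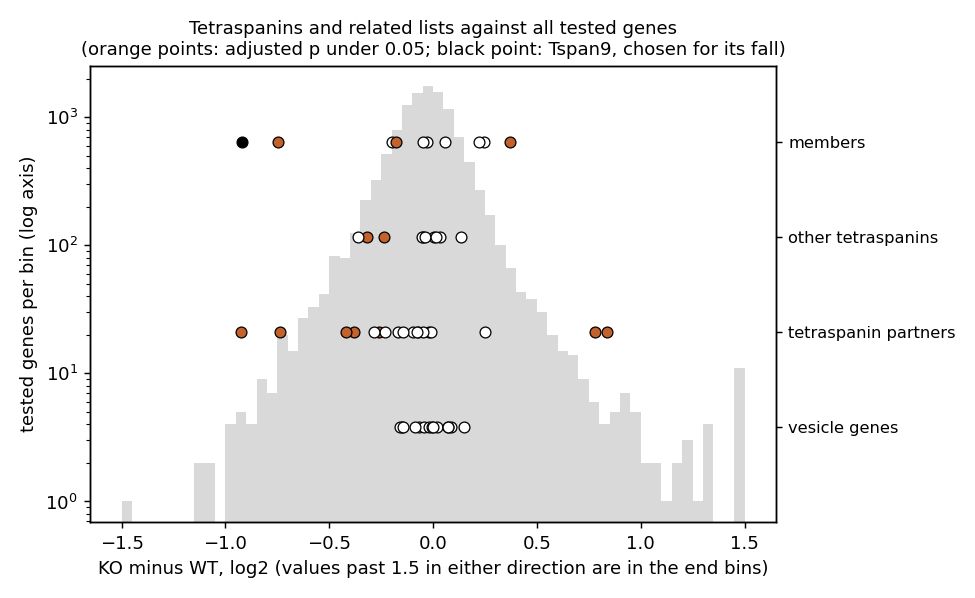
Histogram of the log2 difference between KO and WT over all tested genes (left axis, log scale), with the members of the 4 gene lists as points in rows; orange points passed an adjusted p of 0.05 and the black point is Tspan9. Members and partners reach both tails, and the points of the vesicle genes lie between -0.16 and 0.15.

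The profile of Tspan9 over the 8 arrays, each gene centred on its own mean, was nearest to those of H2-Oa, Cd86 and Uhrf1, leaving out predicted, small RNA and receptor segment genes. Their root mean square distances from it were 0.158, 0.192 and 0.196 log2. H2-Oa, a subunit of an MHC class II chaperone, ranged over 8.90 to 9.07 in WT and 7.95 to 8.29 in KO. The costimulatory ligand gene Cd86 ranged over 6.50 to 6.95 in WT and 5.36 to 5.74 in KO. For Uhrf1, which maintains DNA methylation, the ranges were 7.66 to 7.95 and 7.00 to 7.38. Each has KO replicate 2 lowest and KO replicate 4 highest within KO, as Tspan9 does. They were picked for a near profile over these same arrays, so this shared order adds no separate evidence. The neighbour of Tspan9 with a probe set on one side is another tetraspanin gene, Tspan11, at -0.048 as above. On the other side it is the noncoding gene 9330102E08Rik, below the filter at 4.53 in WT and 4.68 in KO.

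The array medians lay between 5.52 and 5.59. Pggt1b fell by 0.59 ± 0.072 SE (limma, adjusted p = 0.00141), from a mean of 8.35 in WT to 7.75 in KO. The direction followed the labels, but the loss of signal was partial and the KO mean stayed above the filter. Why signal remained was not tested. The CD4SP markers Cd4, Cd3d, Cd3e, Cd3g, Cd5 and Zbtb7b were all tested and 0 were called (0 with an unadjusted p under 0.05). In bulk RNA, fewer cells of a type and less RNA per cell cannot be told apart. Tetraspanins are also made by other cells, whose markers were therefore measured, as log2 of the summed linear signal of each list. The B cell list, with 1 of 8 genes tested, Cd79b, lay between 8.16 and 8.33 in WT and between 8.24 and 8.43 in KO. Dendritic and myeloid genes, with 4 of 10 tested, lay between 8.62 and 8.85 and between 8.64 and 8.88. Platelet genes, the textbook source of Tspan9, lay between 7.52 and 7.71 in WT and between 7.62 and 7.76 in KO, and Gp9, Gp5, Pf4 and Ppbp were below the filter. None of these 3 lists was lower in KO over its whole range, and 0 of their 6 tested genes were called. Itgam and Itga2b had an unadjusted p under 0.05, at 0.26 and 0.18. Outside these lists, H2-Oa and Cd86 differed by -0.87 and -1.08 log2, and their genotypes did not overlap. Both were picked above for their likeness to Tspan9, and whether other cells account for their values was not tested. Stromal and endothelial genes had 5 of 9 tested and lay between 10.93 and 11.11 in WT and between 11.15 and 11.24 in KO. That list had 1 call, Pecam1, which T cells also express, higher by 0.24 ± 0.060 SE (limma, adjusted p = 0.0286), and the call ended for 6 of the 8 arrays left out. The list of regulatory T cell genes lay between 10.65 and 10.94 in WT and between 10.49 and 10.84 in KO, with 0 of 4 called (1 with an unadjusted p under 0.05, Ikzf2 at -0.29). The CD8 genes lay between 10.97 and 11.33 in WT and between 10.62 and 11.00 in KO, with Cd8a called and Cd8b1 at -0.13. The part of CD8 and regulatory T cell levels in the tetraspanin values was not tested. The 5 erythroid genes had no probe set of a single symbol.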

How the data were processed

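Per the submitters' processing notes, the deposited log2 intensities per gene-level probe set were made by the authors with RMA in Affymetrix Expression Console 1.1, and biotin-labelled cDNA was amplified from nanogram amounts of RNA. The sources used here give no build, annotation release or filter. Amplification and background compress differences of dim genes, and the number of arrays limits precision. Of 41345 probe sets, 23521 carry 1 symbol in the platform annotation. The brightest per gene was kept, and 11585 genes whose mean reached the median over probe sets, 5.56, were tested with limma 3.58.1, run in R 4.3.3 (linear model with eBayes, genotype the only term, two-sided, Benjamini-Hochberg). The script was tested on simulated data. The members and lists were chosen with earlier results of these data known. The lists were the members, other tetraspanins, partners, vesicle genes and 8 lists of cell markers. Named were all members, tested tetraspanins, called list genes, the genes nearest to Tspan9 in profile and its neighbours. Alternatives were the filter, the probe set rule, a second quantile normalization, array centring, array weights, an intensity trend, a stricter threshold, a heat-shock covariate and leaving out arrays.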

Additional observations from a re-analysis of the deposited data

Results flagged for a closer look

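Tspan3 in WT replicate 4 stood at 8.55, apart from the other WT arrays at 8.40 to 8.42, by the gap test for groups of 4. This was 1 of 58 groups of arrays examined, and chance flags about 1 group in 20. The fall of Tspan3 kept its call without this array.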

How the results depend on the processing

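No paired analysis was possible because the labels give no replicate numbers, and those used here only name the arrays. The count of members higher in KO was 1. It was 0 at an adjusted p under 0.01, with probe sets averaged per gene or without KO replicates 1 and 2. Array weights or an intensity trend with a robust prior gave 2, and single arrays left out gave 0 to 1. Without WT replicate 1 the member counted was Tspan32 (limma, adjusted p = 0.0136), not Cd9 (0.0562). The count of members lower, Tspan9 included, was 3 and stayed at 2 or 3. It was 2 with any single array left out, where Cd82 lost its call each time. Tspan9 was chosen for its fall, so its share of this count was set beforehand. Other tetraspanins lower numbered 2, and 0 at an adjusted p under 0.01, 1 with no filter, with a heat-shock covariate or without KO replicates 1 and 2, and 1 to 2 with single arrays left out. Partners lower numbered 5, and 2 at an adjusted p under 0.01. They numbered 0 without KO replicates 1 and 2, and 3 to 5 with single arrays left out. Calls over all tested genes, in either direction, numbered 1503, 446 at an adjusted p under 0.01 and 254 without KO replicates 1 and 2. Vesicle genes lower numbered 0, and 1 with an intensity trend, and 0 to 1 with single arrays left out. Tspan31, Tspan3, Itga4 and Itga6 passed under every alternative run but Tspan3 at an adjusted p under 0.01. Cd82 missed the threshold with no filter (limma, adjusted p = 0.114) and with the heat-shock level (0.0980), as did Tspan5 (0.0807 and 0.0755). Cd82 also missed it with an intensity trend (0.0564). Without KO replicates 1 and 2, Cd9 (0.196), Cd82 (0.182) and Tspan5 (0.128) all missed it. The cause was not tested. Signs turned for genes with differences near 0. Tspan4 stood at -0.0037 after a second quantile normalization and -0.0016 with arrays centred. Tspan14 stood at -0.031 with arrays centred, -0.0032 with array weights, -0.038 with the heat-shock level and -0.033 without KO replicates 1 and 2. Prph2 stood at -0.025, -0.021, -0.024 and -0.040 after quantile normalization, centring, the heat-shock level and without those 2 arrays, and Upk1a at 0.030 without them. With single arrays left out Tspan13 ran from -0.088 to 0.030, Tspan14 from -0.026 to 0.039, Upk1a from -0.062 to 0.0019 and Prph2 from -0.032 to 0.047. Array centring moved the median of all tested genes from -0.030 to -0.064. Signal near background limits what Cd63 and the genes below the filter can show.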

Other observations

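Spread differed between the genotypes for several members. The SD of Tspan32 was 0.16 in WT and 0.016 in KO, that of Tspan13 was 0.15 and 0.012, and that of Tspan31 was 0.15 and 0.042. Tspan9 and Cd63 went the other way, with SDs of 0.15 and 0.097 in WT and of 0.31 and 0.27 in KO. These spreads were noticed after the data were seen and rest on 4 arrays per genotype.

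WT replicate 1 was the lowest or the highest WT array for every member. It lay at the KO end of the WT arrays for Tspan31, Tspan32, Cd81, Tspan13, Cd37 and Cd63, and also for Tspan6. For Tspan9, Cd9, Cd82 and Cd53 it lay at the far end from KO.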
